A study of Saccharomyces cerevisiae with 6 samples.

Results

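The comparison described here is the response to low glucose of budding yeast that overexpresses *PPZ1*, across all genes. It sets 1 mRNA-Seq library of cells with the *PPZ1* plasmid after 1 h in 0.25% glucose against 1 library of the same cells after 1 h in 2% glucose. All features of the deposited table were members, and 5233 of 6687 were compared, namely those that averaged 10 CPM or more in the 4 libraries grown on glucose. CPM here is the deposited value per 1000000 of the total of the largest library. The strain was BY4741, a haploid of mating type a. It carried *PPZ1* on pCM190, a multicopy plasmid with the *tetO7* promoter, which doxycycline keeps off. Control cells carried the empty pCM190 and went through the same steps, so that the plasmid backbone, the minus uracil medium and the doxycycline treatment were common to all cultures. Cells were grown overnight with 100 µg/ml doxycycline, washed, grown without it for 3.5 h to an OD600 of 0.55, filtered, and resuspended in fresh medium with 0.25% or 2% glucose. The series has 6 conditions in all, with 1 library each.

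With 1 library per condition there was no replicate error and no test. Errors given with log2 changes (0.25% minus 2% glucose, on log2 of CPM plus 1) are standard errors from read counting, and intervals in parentheses are exact 95% counting intervals. They cover neither culture nor library variation. The 0.25% glucose library of *PPZ1* cells was the smallest in the series, with 1845237 reads in features, against 4921218 in 2% glucose. The control libraries held 6784469 reads in 0.25% and 5644263 in 2% glucose. A level of 10 CPM equals 19.0 reads in that library, but the minimum was set on the mean of the 4 libraries, so that compared genes can have fewer reads there. "Rose" and "fell" are used only of features at least 2-fold apart. Strain markers fitted the labels in the main: *MET17* had 0 reads, *LEU2* at most 1, and the receptor gene of a cells, *STE2*, had 366 and 559 CPM in 0.25% and 2% glucose. *HIS3*, which is only partly deleted in this strain, had 68.0 and 62.5 CPM. Of genes of alpha cells, *MF(ALPHA)1* had 2 and 4 reads. *STE3* and *SAG1*, also of alpha cells, were not absent, with 15.8 and 8.88 CPM and 15.8 and 31.1 CPM.

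*PPZ1* mRNA stood at 17798 CPM in 0.25% glucose and 12538 CPM in 2% glucose, or 1.83% and 1.26% of the reads of each library, so that the plasmid gene was itself 0.51 ± 0.01 higher on the log2 scale in the low glucose library. In control cells the chromosomal gene had 94.3 and 78.8 CPM. Its paralog *PPZ2* had 38.5 and 33.5 CPM in *PPZ1* cells (0.19 ± 0.20). The mRNAs of the inhibitory subunits stood at 59.5 and 78.5 CPM for *SIS2*, which encodes Hal3 (-0.39 ± 0.15), and at 42.1 and 47.6 CPM for *VHS3* (-0.17 ± 0.18). None of these genes was 2-fold apart.

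Yeast senses glucose through several pathways at once. When glucose is plentiful, the sensors Snf3 and Rgt2 lead to the loss of Mth1 and Std1 and so relieve repression by Rgt1 of low-affinity transporter genes, while the repressor Mig1, with the corepressor Tup1-Cyc8, keeps genes for other carbon sources off. When glucose falls, the Snf1 kinase inactivates Mig1, and genes for high-affinity uptake, other sugars, storage and respiration are expressed. Ppz1 is a Ser/Thr phosphatase related to Glc7, the phosphatase that with Reg1 opposes Snf1.

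The core of a Mig1 site, GCGGGG or GTGGGG on either strand, stood within 500 bases before the start codon of several genes that rose. The windows below hold the match in capitals with 10 bases on either side, 5′ to 3′ on the strand of the gene, from the RefSeq copy of assembly R64. They are shown because several of the largest rises in *PPZ1* cells carried them. The *HXT7* window is chrIV:1156175-1156200, that of *HXT4* chrVIII:289046-289071, that of *HXT2* chrXIII:287648-287673, that of *MAL33* chrII:800352-800377, that of *MTH1* chrIV:1016116-1016141 and that of *TMA10* chrXII:783818-783843. *HXT2* and *MAL33* are on the plus strand and the others on the minus strand.
HXT7: aaggaaaaatCCCCACcatctttcga
HXT4: gtttatgaagGTGGGGtggtaagaaa
HXT2: ccggagaaaaGCGGGGtcttttaact
MAL33: gcgcaatttaCCCCGCccccggattt
MTH1: aggatgactgCCCCACacatttcctc
TMA10: agtaaatgtgGCGGGGaagatgttga

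Genes for high-affinity glucose uptake were among the largest rises. *HXT7*, for a high-affinity hexose transporter, had 1628 CPM in 0.25% and 256 CPM in 2% glucose (log2 change 2.66 ± 0.05). *HXT4* had 710 and 131 CPM (2.43 ± 0.07). *HXT6* had 942 and 213 CPM (2.14 ± 0.06), although it is nearly identical to *HXT7* and reads may be shared between them. *HXT2* had 392 and 101 CPM (1.94 ± 0.08). These were all 4 of the glucose-repressed transporter genes above the level minimum, of 13 listed. The genes of low-affinity transporters fell. *HXT1*, made when glucose is abundant, had 7.38 CPM in 0.25% and 295 CPM in 2% glucose, a ratio of 0.025 (0.0136 to 0.0421) that rests on 14 and 1463 reads. *HXT3* had 133 and 538 CPM (-2.01 ± 0.09).

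In control cells the same genes moved in the same directions, and the 2% glucose levels of both strains were close to each other. *HXT7* had 2745 and 245 CPM there, *HXT6* 2153 and 189 CPM, *HXT4* 869 and 146 CPM, *HXT2* 707 and 92.4 CPM, *HXT3* 185 and 564 CPM, and *HXT1* 16.4 and 328 CPM. As measured, the strains thus stood apart in the 0.25% glucose libraries, where the levels of *PPZ1* cells were the lower ones for each of these genes. With a trend in coding length removed, as described below, *HXT4* changed more in *PPZ1* cells (2.73, control 2.41). The corrected change of *HXT3* was about equal (-1.73, control -1.77), while *HXT7*, *HXT6* and *HXT2* still rose less and *HXT1* fell more. With 1 library per condition the difference between the strains was not tested.

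**Figure D1:**
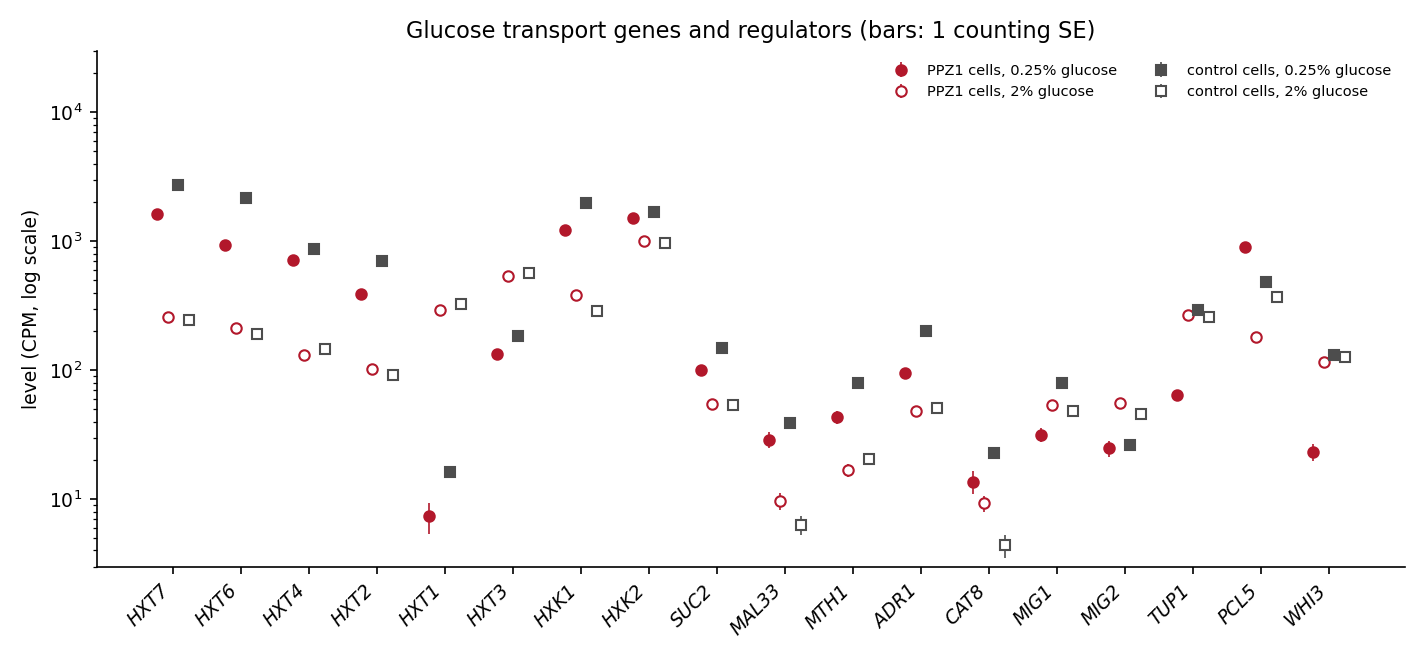
Level (CPM, log axis) of glucose transport genes and regulators in *PPZ1* cells (circles) and control cells (squares), in 0.25% (filled) and 2% glucose (open), with bars of 1 counting standard error. The 4 high-affinity transporter genes are higher in 0.25% glucose in both strains and *HXT1* and *HXT3* lower, while *TUP1* and *WHI3* are low in 1 of the 4 libraries, that of *PPZ1* cells in 0.25% glucose.

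Across all genes, 85 features (1.62% of those compared) rose and 264 (5.04%) fell in *PPZ1* cells. In control cells 49 (0.936%) rose and 8 (0.153%) fell. The change in *PPZ1* cells followed coding length, taken from the start to the end of the coding span. Its Spearman correlation with length was -0.59 across the 5233 genes, which share both libraries and are not replicates. In control cells the correlation was 0.23. The 10% of genes with the shortest coding spans, with a median of 354.5 bp, had a median log2 change of 0.38, and 41 of these 524 rose and 5 fell. The 10% with the longest spans, with a median of 3810.5 bp, had a median of -0.59, and 1 rose and 66 fell. In control cells the same groups had medians of 0.02 and 0.18. The features that rose had a median length of 503 bp and those that fell 1964 bp, against 1286 bp for all. The library of *PPZ1* cells in 0.25% glucose was also the one with the fewest reads. The part of depth in the trend was not tested.

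**Figure D2:**
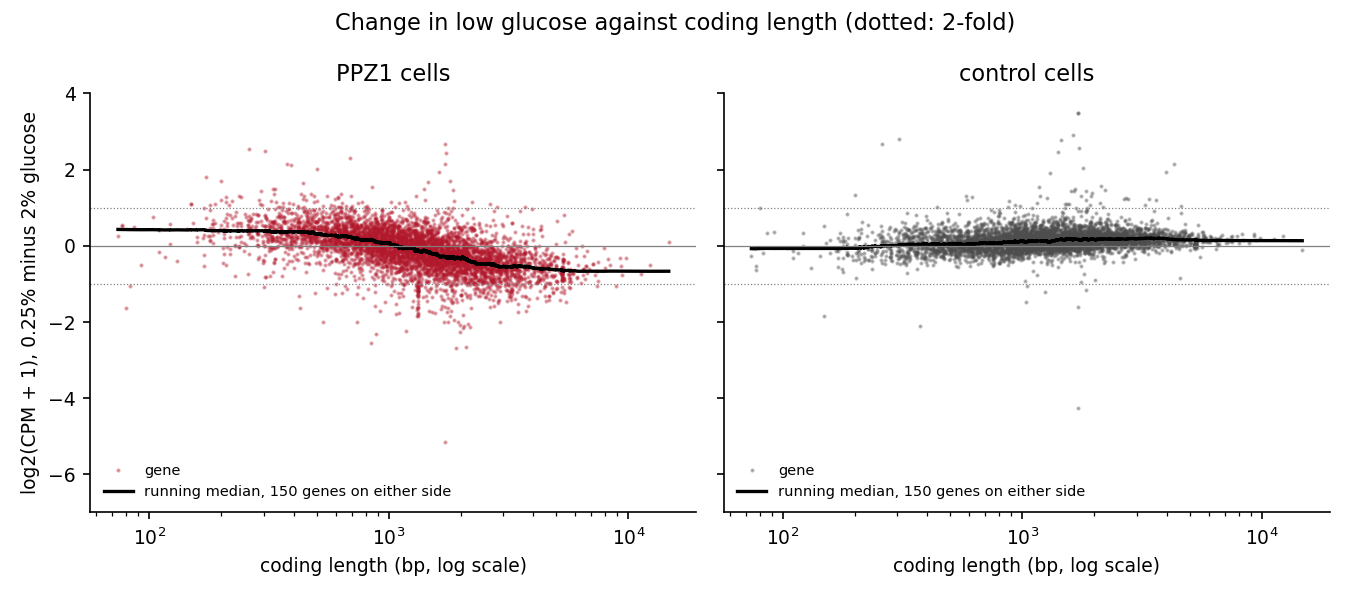
Log2 change of each compared gene (0.25% minus 2% glucose) against coding length in bp (log axis), for *PPZ1* cells (left) and control cells (right), with the running median over 150 genes on either side in length rank. The running median runs downhill with length in *PPZ1* cells, with decile medians of 0.38 for the shortest and -0.59 for the longest genes, and changes little in control cells.

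Changes are therefore given both as measured and length-corrected, with that running median subtracted. After correction 82 features (1.57%) rose and 128 (2.45%) fell in *PPZ1* cells, and 36 (0.688%) rose and 12 (0.229%) fell in control cells. Of the 85 features that rose as measured, 40 still did after correction, and 112 of the 264 that fell. A further 42 rose and 16 fell only after correction. The median length was 1746.5 bp for the corrected rises and 1322 bp for the corrected falls. Counting error was large for many of them. The interval of the corrected change lay wholly past 2-fold for 31 of the 82 rises and 34 of the 128 falls, and 23 of the 128 falls had at most 10 reads in the low glucose library.

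The 4 high-affinity transporter genes and *HXT1* and *HXT3* kept their directions after correction, with corrected changes of 2.96 for *HXT7*, 2.73 for *HXT4*, 2.43 for *HXT6*, 2.21 for *HXT2*, -1.73 for *HXT3* and -4.85 for *HXT1*. Genes for other sugars rose in part. *HXK1*, for the hexokinase made when glucose is scarce, had 1230 CPM in 0.25% and 384 CPM in 2% glucose (1.68 ± 0.04, corrected 1.84). It overlaps YFR052C-A on the same strand, which had 457 and 80.3 CPM. *HXK2*, for the hexokinase of growth on glucose, had 1527 and 996 CPM (0.62 ± 0.03), below 2-fold. *GLK1* and *EMI2*, for glucokinase and its paralog, changed by 0.09 ± 0.06 and 0.23 ± 0.11, against 1.00 and 1.09 in control cells. Of 6 genes for sucrose and maltose use, *MAL33*, for the maltose activator, rose as measured (29.0 and 9.68 CPM, ratio 2.99, 1.99 to 4.50) and *SUC2*, for invertase, rose after correction only (99.6 and 54.7 CPM, 0.85 ± 0.13, corrected 1.09). The maltose permease gene *MAL31* also rose after correction only (24.8 and 11.9 CPM, corrected 1.31).

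The sensing circuit itself was mixed. *MTH1*, for the partner of Rgt1 that is lost when glucose is sensed, rose, with 43.2 and 16.7 CPM (1.32 ± 0.22, corrected 1.45). Its paralog *STD1* had 30.0 and 58.3 CPM (-0.93 ± 0.20). The sensor genes went apart, *SNF3*, for the high-affinity sensor, with 20.0 and 13.7 CPM (0.51 ± 0.28), and *RGT2*, for the low-affinity sensor, with 14.2 and 35.7 CPM (-1.27 ± 0.28, corrected -0.81). *RGT1* had 31.6 and 66.2 CPM (-1.04 ± 0.20, corrected -0.51). Over the 8 genes of the circuit the median was -0.74 as measured and -0.34 after correction, and all 8 had a lower corrected change than in control cells.

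Some genes for the repressors fell in *PPZ1* cells. *TUP1*, for the corepressor that Mig1 recruits, had 63.7 CPM in 0.25% and 269 CPM in 2% glucose (-2.06 ± 0.14, corrected -1.67), from 121 and 1331 reads. In control cells *TUP1* had 293 and 259 CPM. Of the 4 libraries only that of *PPZ1* cells in 0.25% glucose was low. *CYC8*, for the other corepressor subunit, changed by -1.20 ± 0.14 (corrected -0.65). *MIG1* had 31.6 and 53.5 CPM (-0.74 ± 0.20), against 80.0 and 48.7 CPM in control cells. *MIG2*, for a related repressor, had 24.8 and 55.5 CPM (-1.13 ± 0.22, corrected -1.06), and it was lower in 0.25% glucose in control cells too, with 26.1 and 45.3 CPM. *NRG1* and *NRG2*, for other glucose repressors, changed by -0.19 ± 0.23 and 0.53 ± 0.23. The kinase gene *SNF1* had 72.7 and 85.7 CPM (-0.24 ± 0.14, corrected 0.09), *REG1* 114 and 191 CPM (-0.74 ± 0.11, corrected -0.19) and *GLC7* 358 and 388 CPM (-0.12 ± 0.06). In the whole list of 20 genes for Snf1, its regulators and these repressors, 0 rose and 4 fell as measured, *TUP1*, *CYC8*, *MIG2* and *SAK1*, for a kinase of Snf1 (-1.21 ± 0.17), and after correction *TUP1* and *MIG2* were left. With a trend in the share of C in the coding strand also removed, *MIG2* was below 2-fold. Of all features, 5.04% fell as measured and 2.45% after correction.

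Of 10 genes for activators of growth on other carbon sources, 0 rose as measured and 3 after correction, against 4 and 4 in control cells. Over all features 1.62% rose as measured and 1.57% after correction in *PPZ1* cells. The median of the 10 genes was 0.13 as measured and 0.00 after correction, with 5 above 0, against 0.60 and 0.48 in control cells. *ADR1* had 95.4 CPM in 0.25% and 48.6 CPM in 2% glucose (0.96 ± 0.14, corrected 1.54), and *HAP4*, for the limiting subunit of the activator of respiration genes, had 83.8 and 49.4 CPM (0.75 ± 0.14, corrected 1.03). *CAT8*, for the activator of gluconeogenesis genes, had 13.7 and 9.28 CPM, a ratio of 1.48 (0.876 to 2.44) that includes no change. Its corrected change was 1.12, set by its coding length of 4301 bp. The other 7 of the 10 genes were below 2-fold. Of 7 genes for gluconeogenesis and the glyoxylate cycle above the minimum, *JEN1*, for the lactate carrier, rose (18.4 and 6.05 CPM, ratio 3.05, 1.82 to 5.14) and *ICL2*, for methylisocitrate lyase, rose after correction only. *JEN1* and *CAT8* were under 10 CPM in 2% glucose in both strains, so that they passed the minimum through their 0.25% glucose levels. *FBP1*, *PCK1* and *MLS1* were under the minimum.

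Storage carbohydrate genes did not rise as measured. Over 14 glycogen genes the median was -0.02, and 0.17 after correction, against 0.83 and 0.65 in control cells. *GSY1*, for glycogen synthase, had 112 and 57.1 CPM (0.96 ± 0.13, corrected 1.32), and *GPH1*, for glycogen phosphorylase, 320 and 199 CPM (0.68 ± 0.07, corrected 1.17). The 7 trehalose genes had a median of -0.48, which became 0.03 after correction, and *TSL1*, for a subunit of trehalose synthase, fell as measured only (136 and 277 CPM, -1.02 ± 0.10, corrected -0.47). Glycolysis genes stayed below 2-fold, with a median of -0.03 over 14 genes. The abundant mRNA of *TDH3*, for glyceraldehyde-3-phosphate dehydrogenase, had 18319 and 18511 CPM.

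**Figure D3:**
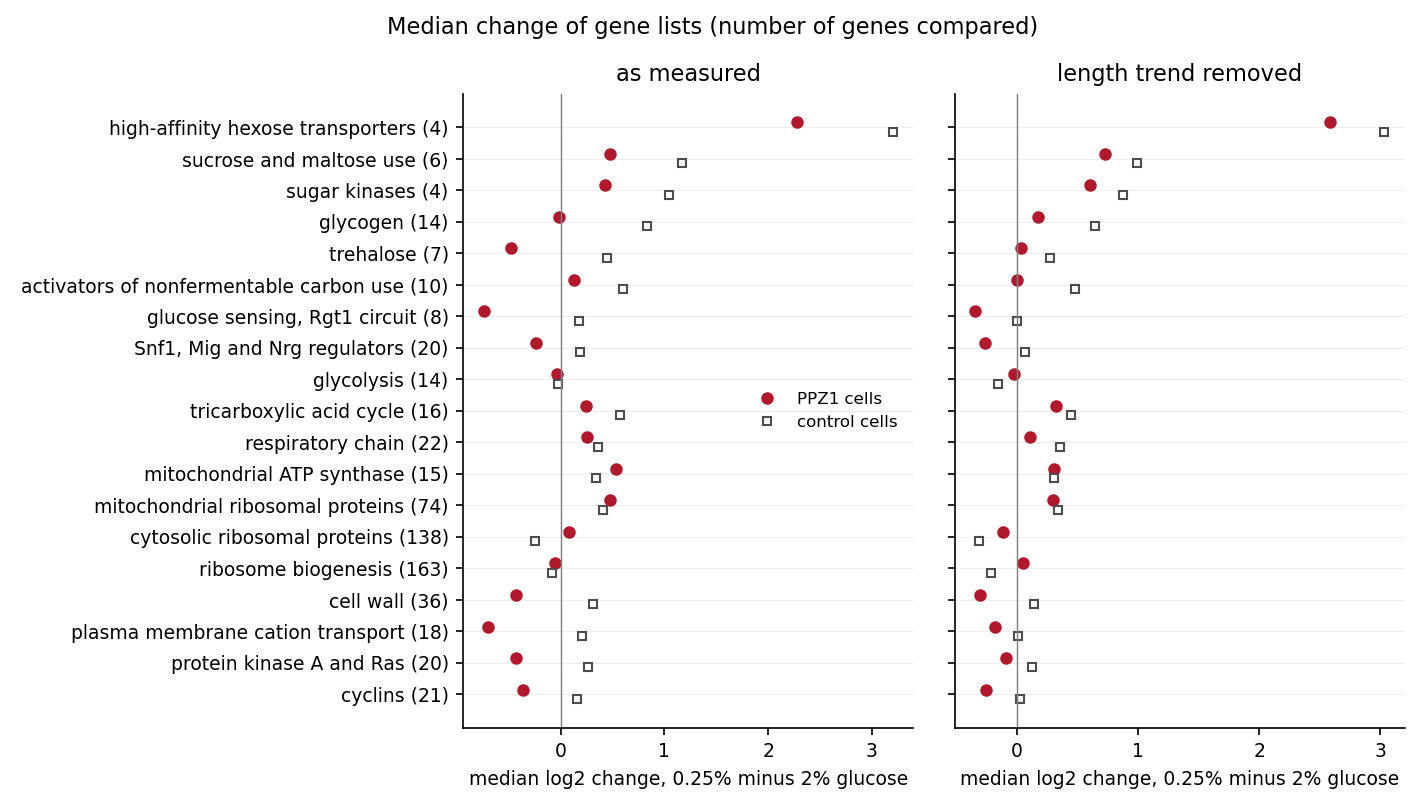
Median log2 change (0.25% minus 2% glucose) of gene lists in *PPZ1* cells (circles) and control cells (squares), as measured (left) and with the length trend removed (right), with the number of genes compared in parentheses. High-affinity transporters have the highest median in both strains (2.28 in *PPZ1* cells and 3.20 in control cells as measured), and the medians of trehalose, cation transport and protein kinase A genes move toward 0 after correction.

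The 4 lists of nuclear genes for mitochondria had medians above 0. The 74 genes for mitochondrial ribosomal proteins had a median of 0.47, with 70 above 0, and of 0.30 with 60 above 0 after correction. The median over all genes was -0.09 as measured. Of the 74 genes 4 rose, such as *RSM27* (89.0 and 34.1 CPM, 1.36 ± 0.15), and 0 after correction. Over all features 1.62% rose as measured and 1.57% after correction. The 74 genes are short, with a median of 678.5 bp. Among all compared genes of 485 to 695 bp, the median change was 0.27 as measured, and 18 of 523 rose. In the control response the same list had medians of 0.41 and, after correction, 0.34. The 15 nuclear genes of the ATP synthase had a median of 0.53 (0.31 after correction) and the 16 genes of the tricarboxylic acid cycle 0.24 (0.32). The 22 respiratory chain genes had a median of 0.26, which became 0.11 with 12 above 0 after correction, against 0.36 in both forms in control cells. Of these, *CYC1*, for cytochrome c, rose with and without correction, at 1970 and 705 CPM (1.48 ± 0.03, corrected 1.11), and *QCR6*, of the cytochrome bc1 complex, as measured only (1.30 ± 0.07, corrected 0.93). The 8 genes encoded in mitochondria had 0 reads in the 4 glucose libraries.

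Genes for cytosolic translation were near the median of all genes as groups. Of 138 genes for ribosomal proteins, 0 rose and 0 fell, with a median of 0.08 (-0.12 after correction), against -0.24 (-0.31) in control cells. Ribosome biogenesis genes, 163 in number, had a median of -0.05 (0.05). Single factors stood apart. *DED1*, for a helicase of translation initiation, had 61.6 and 204 CPM (-1.71 ± 0.14, corrected -1.40), though it overlaps YOR203W on the same strand. *TIF4631*, for eIF4G1, had 171 and 484 CPM (-1.50 ± 0.08, corrected -0.97). In control cells *DED1* and *TIF4631* changed by -0.11 and 0.00. *FUN12*, for eIF5B, rose after correction only (1366 and 943 CPM, corrected 1.06), as did *KRI1*, *BUD22* and *SAS10*, for factors of ribosome assembly. Of the 163 ribosome biogenesis genes, 0 rose and 3 fell as measured, among them *PWP2* (-1.21) and *NAF1* (-1.12). After correction 3 of them rose and 1 fell. Of 39 translation factors, 1 rose and 2 fell as measured, and 2 rose and 1 fell after correction. Over all features 1.62% rose and 5.04% fell as measured, and 1.57% and 2.45% after correction.

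Beside the sugar genes, the rises included genes of other roles. *PCL5*, for a Pho85 cyclin that promotes the turnover of the activator Gcn4, had 901 CPM in 0.25% and 180 CPM in 2% glucose (2.31 ± 0.06, corrected 2.08). In control cells *PCL5* had 480 and 367 CPM (0.39 ± 0.04), so that the *PPZ1* libraries held both the highest and the lowest of its 4 levels. *TMA10*, for a ribosome-associated protein, had 175 and 29.3 CPM (2.54 ± 0.14), close to 171 and 25.7 CPM in control cells. *MRK1*, of the glycogen synthase kinase family, rose with few reads (44 and 32, ratio 3.59, 2.23 to 5.85). The short feature YLR342W-A had 104 and 29.3 CPM (1.80 ± 0.15, corrected 1.40), and *FMP43*, for a subunit of the mitochondrial pyruvate carrier, 21.1 and 6.05 CPM (ratio 3.48, 2.11 to 5.79). *MRK1* and *FMP43* were under 10 CPM in 2% glucose in both strains and passed the minimum through their 0.25% glucose levels.

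The falls that were not shared with control cells included genes for regulators. *WHI3*, for an RNA-binding protein that restrains the G1 cyclin Cln3, had 23.2 CPM in 0.25% and 115 CPM in 2% glucose, from 44 and 572 reads (-2.27 ± 0.22, corrected -1.93). Control cells had 131 and 127 CPM. *SKN7*, for an activator of the oxidative stress response, had 20.0 and 79.5 CPM (-1.94 ± 0.23), against 84.5 and 76.2 CPM in control cells. *ROX1*, for the repressor of hypoxic genes, had 24.2 and 84.5 CPM (-1.76 ± 0.22), against 87.1 and 82.1 CPM. For each of these genes, as for *TUP1*, 3 of the 4 libraries lay close together and the low glucose library of *PPZ1* cells lay far below. *WHI3*, *SKN7*, *ROX1* and *TUP1* were among the 6 genes named for the largest falls relative to control cells, so this pattern follows from that choice. *DAL81*, for an activator of nitrogen use genes, had 14.8 and 61.9 CPM (ratio 0.238, 0.156 to 0.351). *DHH1* and *SSD1*, for proteins that act on mRNA decay and translation, had 27.9 and 94.6 CPM and 62.7 and 207 CPM. These last genes were chosen after their values were seen.

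Other large falls rested on few reads. *ATP10*, for an assembly factor of the ATP synthase, had 2 reads in 0.25% and 55 in 2% glucose, a ratio of 0.095 (0.0112 to 0.36). *RTG1*, for an activator of the retrograde response, had 5 and 67 reads (0.195, 0.0613 to 0.478), and *YAP5*, for an iron-responsive activator, 6 and 78 reads (0.201, 0.0715 to 0.457). *MPS3*, *FRE8*, *GEM1* and *ECM27* had 9 to 12 reads in 0.25% glucose, with ratios of 0.197 to 0.207. Of the 128 corrected falls, 51 had a mean of at least 50 CPM.

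Some genes of the cell surface fell in *PPZ1* cells. *SED1*, for an abundant wall protein, had 791 CPM in 0.25% and 1942 CPM in 2% glucose (-1.30 ± 0.04, corrected -1.35), against 2147 and 1563 CPM in control cells. *RLM1*, for the activator at the end of the cell integrity pathway, had 11.1 and 41.8 CPM (-1.83 ± 0.30, corrected -1.54). Of 36 cell wall genes, 5 fell and 1 rose as measured, and 2 fell and 1 rose after correction, where 5.04% and 2.45% of all features fell, with medians of -0.43 and -0.31, against 0.31 and 0.15 in control cells. *PMA1*, for the proton pump of the plasma membrane, had 1902 and 5713 CPM (-1.59 ± 0.03, corrected -1.09). In control cells *PMA1* had 5291 and 5848 CPM. It was the 1 fall among 18 cation transport genes left after correction, of 6 as measured. These 18 genes are long, with a median of 2799.5 bp. At about the 2.45% share of all features, 1 of 38 genes of the secretory pathway fell after correction. It was *SEC31*, for a coat protein of vesicles that leave the endoplasmic reticulum, with 115 and 345 CPM (-1.57 ± 0.10, corrected -1.03). With a trend in the share of C also removed, *SEC31* was below 2-fold.

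Of 21 genes for cyclins and Sic1, 2 were above 0 as measured and 6 after correction. *PCL5* was the 1 rise. The 3 that fell as measured were *CLN3* (30.6 and 74.9 CPM, -1.27 ± 0.20), *CLN2* (-1.14 ± 0.13) and *CLB2* (33.7 and 79.9 CPM, -1.22 ± 0.19), and after correction *CLB2* was left (-1.05). Over all features the shares that fell were 5.04% as measured and 2.45% after correction. Several other lists had few or no members 2-fold apart after correction. The heat shock proteins and chaperones had a corrected median of 0.09 over 33 genes, the proteasome -0.03 over 34, arginine synthesis -0.02 over 9 and iron uptake -0.02 over 16, with 0 rises and 0 falls in each. Further from 0 were uracil and pyrimidine synthesis, at -0.29 over 12 genes, the amino acid and ammonium permeases, at -0.17 over 19, and the histones, at -0.16 over 11, also with 0 rises and 0 falls, and autophagy, at 0.27 over 23 with 1 fall. After correction 1 of 29 genes of sulfate assimilation and methionine synthesis fell, *MET13*, for methylenetetrahydrofolate reductase (22.7 and 83.9 CPM, -1.84 ± 0.22). As measured 2 of these 29 fell, and *MET32* rose (14.8 and 6.46 CPM, 1.08 ± 0.34, corrected 0.80). In ergosterol synthesis 1 of 28 fell after correction, *ARE1*, for a sterol acyltransferase (-1.49 ± 0.24), and 2 as measured. The 1 fall in autophagy was *ATG15*, for a vacuolar lipase, with 13 and 126 reads.

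Among other genes that rose after correction, *SPC110* and *UPF3* rose as measured too, and *USO1* and *TAE2* after correction only. *SPC110*, for a spindle pole body protein, had 247 CPM in 0.25% and 121 CPM in 2% glucose (1.02 ± 0.09, corrected 1.54), against 140 and 139 CPM in control cells. *USO1*, for a tether of vesicles at the Golgi, had 309 and 178 CPM (0.80 ± 0.08, corrected 1.46). *TAE2*, which acts on stalled ribosomes, had 366 and 213 CPM (0.78 ± 0.07, corrected 1.33). *UPF3*, of nonsense-mediated decay, had 95.4 and 42.8 CPM (1.14 ± 0.14, corrected 1.20). In control cells the changes of the 4 genes lay between -0.21 and 0.14, and the 4 were named for their difference from control cells. Named after their values were seen, *YFR016C*, *EST2*, *IMH1*, *MLP2* and *MNN4* had corrected changes of 1.55, 1.58, 1.39, 1.28 and 1.46. As measured, *YFR016C* (1.01) and *EST2* (1.10) rose as well. As measured *MNN4* changed by 0.92 in *PPZ1* cells and by nearly as much, 0.90, in control cells, and the control changes of the other 4 lay between 0.05 and 0.37.

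Composition of the coding strand, a measure chosen after the values were seen, differed between these genes and the falls. Across all 5233 genes the corrected change had a Spearman correlation of -0.34 with the share of C, against 0.09 in control cells. With the share of lysine and glutamate codons it was 0.29 over 5026 genes with an unbroken reading frame, against -0.05 in control cells. These codons (AAA, AAG, GAA and GAG) hold no C, so that their share and the share of C are not independent measures. The corrected falls had a median of 22.7% C (21.9% without retrotransposon features), the corrected rises 17.8% and all genes 18.7%. Lysine and glutamate codons made up 9.85% of codons in the falls (10.8% without retrotransposon features) and 15.5% in the rises, against 13.8% in all. *SED1* had 33.4% C, *ROX1* 26.7% and *TUP1* 24.8%, whereas *SPC110* had 14.2% and *UPF3* 14.4%. In the 10% of genes richest in C, 64 of 524 fell and 3 rose, and in the 10% poorest in C, 2 fell and 18 rose. Genes share both libraries, their length correction and their base composition, and the part of depth in these relations was not tested.

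**Figure D4:**
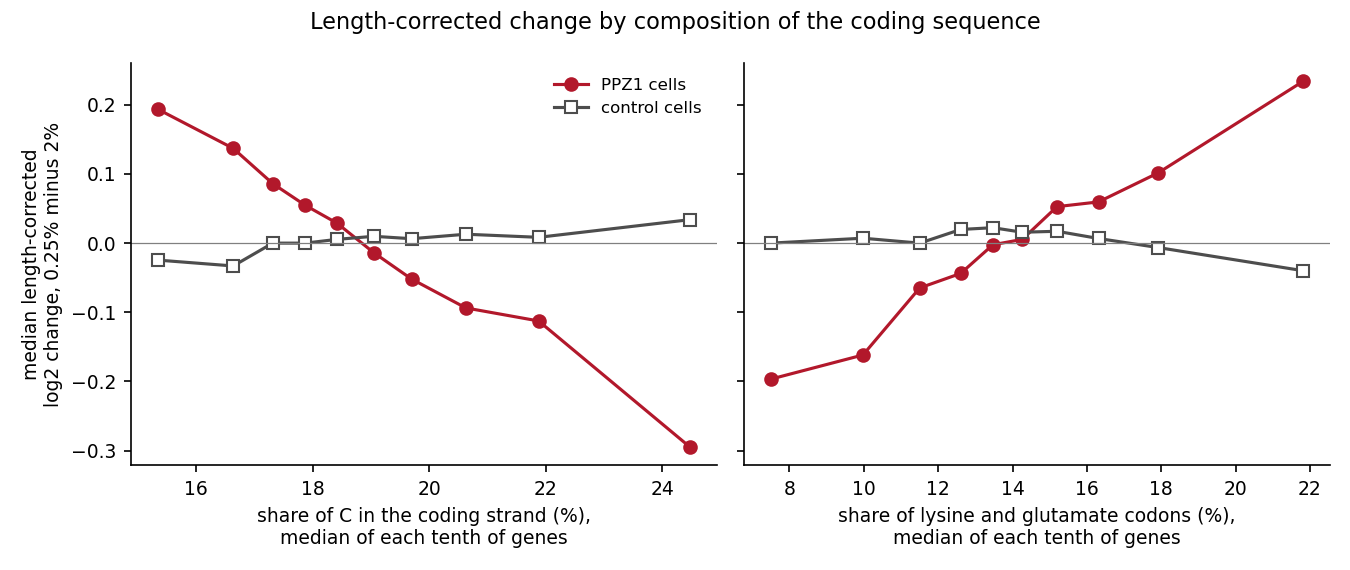
Median length-corrected log2 change (0.25% minus 2% glucose) in each decile of genes ranked by the share of C in the coding strand (left, %) and by the share of lysine and glutamate codons (right, %), in *PPZ1* cells (circles) and control cells (squares). In *PPZ1* cells the medians run from 0.19 to -0.29 with rising C and from -0.20 to 0.23 with rising lysine and glutamate codons, and in control cells they stay between -0.04 and 0.03.

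Genes with long runs of lysine and glutamate codons or of glutamine codons were counted too. Of 59 genes with at least 8 lysine or glutamate codons in a row, 9 rose and 1 fell after correction, where 1.57% of all features rose and 2.45% fell, and 47 were above 0 (median 0.38, control -0.03). Of 74 genes with at least 8 glutamine codons in a row, 0 rose and 7 fell, and 52 were below 0 (median -0.33, control 0.02). Across all genes the corrected change had a Spearman correlation of only -0.08 for the share of glutamine codons and -0.05 for the longest run. The longest glutamine run had a median of 1 codon in the falls without retrotransposon features and 2 in all genes. The longest such runs of *YFR016C* and *TAE2*, which rose, and of *DAL81*, *MPS3*, *TUP1* and *WHI3*, which fell, are shown because their codons differ. They are given with the run in capitals and 6 bases on either side, on the coding strand of assembly R64. They lie at chrVI:179307-179354 (minus strand) for *YFR016C*, chrXVI:536675-536785 (minus) for *TAE2*, chrIX:400002-400064 (plus) for *DAL81*, chrX:404061-404096 (plus) for *MPS3*, chrIII:262126-262158 (minus) for *TUP1* and chrXIV:268820-268849 (minus) for *WHI3*, all within coding exons. The runs of *TUP1* and *WHI3* are under 8 codons, with 7 and 6. Not shown are the longest lysine and glutamate runs of *SPC110*, *USO1* and *UPF3*, which also rose after correction and have 4 codons each. That of *MNN4*, which changed nearly as much in control cells as measured, has 52 and is not shown either.
YFR016C: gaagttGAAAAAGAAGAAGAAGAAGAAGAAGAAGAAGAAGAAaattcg
TAE2: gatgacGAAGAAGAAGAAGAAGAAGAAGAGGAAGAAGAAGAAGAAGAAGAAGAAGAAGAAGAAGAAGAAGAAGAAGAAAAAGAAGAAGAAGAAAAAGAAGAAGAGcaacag
DAL81: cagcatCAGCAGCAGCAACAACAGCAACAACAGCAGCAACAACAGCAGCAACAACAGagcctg
MPS3: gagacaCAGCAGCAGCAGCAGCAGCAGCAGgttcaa
TUP1: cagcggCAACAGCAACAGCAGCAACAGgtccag
WHI3: caatctCAACAGCAGCAGCAACAGccacaa

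Upstream of the start codon, the Mig1 core was the motif in which the rises differed most from all genes among those searched. Of the 82 corrected rises, 30 (36.6%) had it within 500 bases on either strand, against 12.8% of all compared genes and 13 of 128 falls (10.2%). Among the 23 features that rose in both strains it stood before 16 (69.6%), and among the 59 that rose only in *PPZ1* cells before 14 (23.7%). *JEN1* and *ADR1* rose without it, and *HXT1*, which fell, had 1 match. A match is not a site, and these shares were not tested. The stress response element AGGGG was before 37.8% of the rises and 33.5% of all genes, and the Rgt1 site CGGANNA before 52.4% and 41.7%. The polymerase A and C element GATGAG stood before 24.4% and 29.0%, the ribosomal RNA processing element AAAATTTT before 17.1% and 13.3%, and the Gcn4 site TGACTC before 4.88% and 12.7%. Before the falls AAAATTTT stood in 4.69%. These motifs can overlap one another, and a stretch that matched several was counted for each.

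At the 2-fold cut, the corrected rises were only in part those of control cells. Of the 82 in *PPZ1* cells, 23 also rose in control cells, which is 28.0% of the first list and 63.9% of the 36 in control cells. The falls shared 5 features, 3.91% of those in *PPZ1* cells and 41.7% of those in control cells. Of all features, 0.688% rose and 0.229% fell in control cells after correction. The overlaps depend on the cut, since a gene under 2-fold in control cells counts as not shared. *MNN4*, for example, had corrected changes of 1.46 in *PPZ1* cells and 0.71 in control cells. Pearson's correlation of the corrected changes was 0.33 and Spearman's 0.23 across 5233 genes, which are not replicates. The 2 responses share no library. The corrected changes spread more widely in *PPZ1* cells, with an SD of 0.46 across genes, against 0.28 in control cells, while the median counting error was 0.16 and 0.10.

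**Figure D5:**
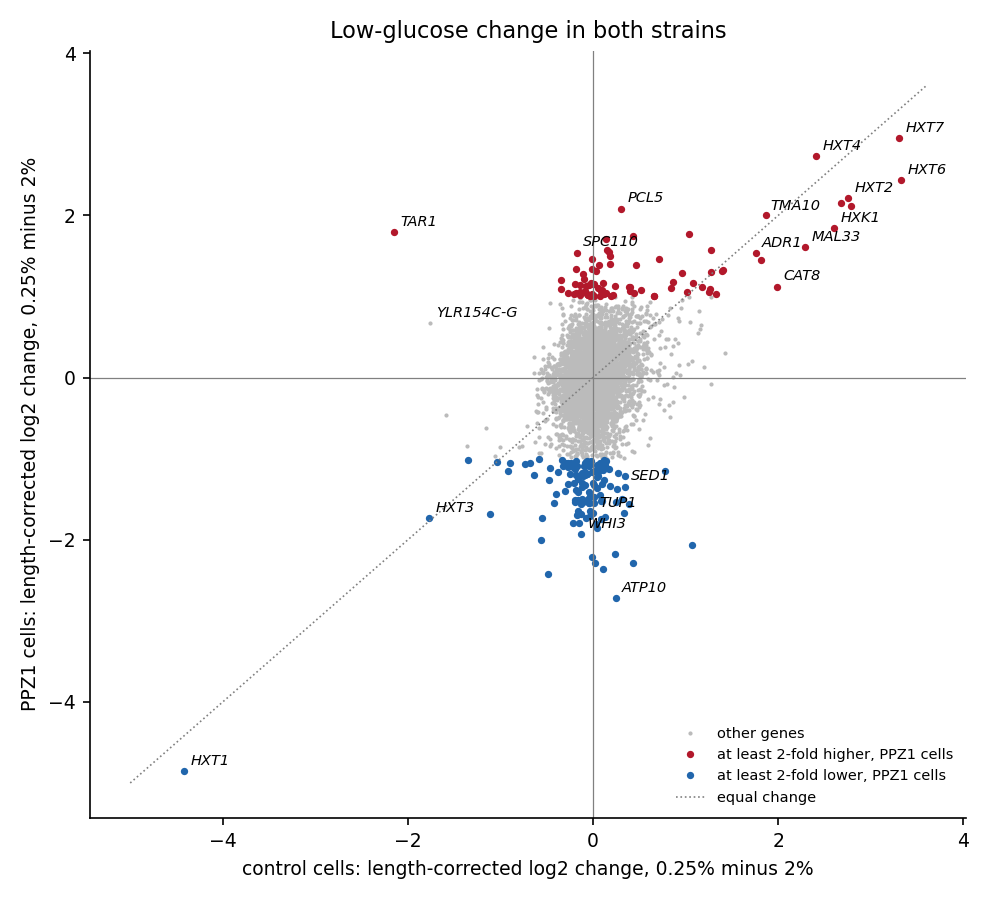
Length-corrected log2 change (0.25% minus 2% glucose) of each gene in *PPZ1* cells (vertical axis) against that in control cells (horizontal axis), with the 82 rises and 128 falls of *PPZ1* cells coloured and a dotted line of equal change. Transporter genes and *HXK1* lie far from 0 in both strains, whereas *PCL5*, *SPC110*, *TUP1* and *WHI3* lie near 0 on the control axis.

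Features of repeats were lower in the low glucose library of *PPZ1* cells, as far as reads that match many copies can be assigned. Of 84 retrotransposon features compared, 0 rose and 34 fell, and 24 fell after correction (median -0.89, corrected -0.34), where 5.04% and 2.45% of all features fell. Summed over these features, *PPZ1* cells had 13227 CPM in 0.25% and 22413 CPM in 2% glucose, and control cells 23785 and 23461 CPM. Of 13 compared features of the telomeric Y′ element, 3 fell as measured and 2 after correction (median -0.89, corrected -0.24). *TAR1*, antisense in the ribosomal DNA, rose from few reads, 49 in 0.25% and 25 in 2% glucose.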

How the data were processed

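Total RNA of 6 cultures of BY4741 was extracted with the RiboPure-Yeast kit and made into TruSeq LT libraries. Per the labels and the file header, the authors aligned reads with Bowtie2 (version not given in the sources used here) and counted them in SeqMonk 0.32.1 over each coding span plus 50 bp on either side, on the strand opposite to the feature, without duplicate reads. The authors left the read counts of the largest library as they were. Their deposited values of every other library are a scaled signal, the counts times 1 factor per library (3.57 and 1.37 for *PPZ1* cells in 0.25% and 2% glucose, 1.19 for control cells in 2% glucose). Dividing by it gave whole reads, within 0.01, for 100% of values. No source used here names the genome build. The R64 annotation held 5957 of the feature names, 5928 with the same start and end, and 5229 of the 5233 compared spans began with ATG in that sequence.

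CPM values kept the authors' scaling, log2 was taken of CPM plus 1, which understates the changes of low genes, and features under a mean of 10 CPM were left out. Coding length was the end minus the start minus 100 bp, which includes introns. The length trend was a running median over 150 genes on either side. Counting errors follow from the reads, and intervals of ratios are exact (Clopper-Pearson, 95%). PCR reads without molecular identifiers are not independent molecules, so these cover counting error only. The length correction was tested on simulated data. These had counting noise, a smooth length trend and no trend with composition, and their planted changes were larger than 2-fold. They do not show how well changes near 2-fold were called here. No count model was fitted: with 1 library per condition, strain-specific responses leave nothing to estimate the spread from, and an additive model, with 2 residual degrees of freedom over the 6 libraries, would assume the same response in both strains. Python 3.11.15, numpy 2.4.6, pandas 2.3.3 and scipy 1.17.1 were used.

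Groups came from the plasmid and glucose labels. The comparison, the gene lists and the motifs were chosen with earlier results of these data known. Genes were named by a rule: the 15 largest rises and falls, the 10 largest of each after correction, the 6 largest differences each way from control cells with a mean of at least 50 CPM, a set of phosphatase and glucose repression genes, and in each list the 2 most abundant and 2 most changed members (all members for lists of at most 10). *YFR016C*, *EST2*, *IMH1*, *MLP2*, *MNN4*, *DHH1*, *SSD1*, *FUN12*, *KRI1*, *BUD22*, *SAS10*, *CYC8*, *CLN2* and *CLB2* were named outside it, after their values were seen. Alternatives tried were other scalings, level minimums, pseudocounts, thresholds and trend windows, and, chosen after the data were seen, removal of the trend with the share of C and of overlapping features. Protein and promoter tables were not used here.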

Additional observations from a re-analysis of the deposited data

Results flagged for a closer look

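As measured, 2 features of the ribosomal DNA were at least 2-fold apart in opposite directions in the strains. *TAR1* had 25.8 CPM in 0.25% and 5.04 CPM in 2% glucose in *PPZ1* cells (log2 change 2.15), against 2.36 and 13.5 CPM in control cells (-2.11). YLR154C-G had 2253 and 1056 CPM in *PPZ1* cells (1.09), against 776 and 2773 CPM in control cells (-1.84). After length correction *TAR1* kept this pattern (1.80 and -2.15), whereas YLR154C-G was below 2-fold in *PPZ1* cells (0.67 and -1.77). YPR160W-A, which overlaps *GPH1* on the same strand, showed the opposite pattern after correction only (-2.07 in *PPZ1* cells and 1.06 in control cells), from 9 and 84 reads in *PPZ1* cells. The difference between the strains was not tested, since each condition had 1 library.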

How the results depend on the processing

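Of the counts as measured, the rises in *PPZ1* cells moved most with the processing. They numbered 85 in the main and 138 with upper-quartile scaling (200 falls), 205 with no level minimum, 31 with a minimum of 50 CPM, 52 with a pseudocount of 5 CPM and 15 at 3-fold. With median-of-ratios scaling there were 119 rises and 217 falls, a higher share of rises than the 85 to 264 of the main values. The falls numbered 141 with a minimum of 50 CPM and 49 at 3-fold. After correction for length there were 47 rises and 52 falls with a minimum of 50 CPM and 50 rises with a pseudocount of 5 CPM. The windows, the bins of length and leaving out overlapping features kept each count within 1.5 times. With the trend in the share of C also removed, 68 rose and 95 fell. The median difference from control cells was -0.25 as measured and -0.00273 with the length trend removed in each response, which is so by construction. Of 83 named genes 2-fold apart as measured, 83 kept their sign under the 4 alternatives named next, and 51 stayed 2-fold apart after length correction, 75 with median-of-ratios scaling, 74 with a pseudocount of 5 CPM and 47 with the share of C also removed. *MIG2*, *SEC31*, *ARE1* and *UPF3* were among those that stayed 2-fold apart after length correction but not with the share of C also removed. No paired analysis was possible because each condition had 1 library and the labels give no replicate numbers. For the same reason no library could be left out. The level minimum applied to the mean of 4 libraries, so that compared genes had as few as 2 reads in the smallest library, where counting error limits the falls. It also let in genes that were under 10 CPM in 2% glucose in both strains and higher in 0.25%, which favours rises. Among these were *JEN1*, *MRK1*, *FMP43* and *MAL33*.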
